A study of Mus musculus with 2 samples.

Results

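The early growth response (EGR) transcription factors Egr1, Egr2 and Egr3 and the NGFI-A binding corepressors Nab1 and Nab2 are described here in bone marrow derived macrophages left untreated or given IL-36 gamma, an interleukin-1 family cytokine. These 5 genes, of 54446 listed in each library, were taken by name, and the set was chosen on the counts of Egr2 and Egr1, which were lower in the library given IL-36 gamma. The ratios of the members between the libraries are therefore a description, with no test, and nothing is supported by them. The series holds 1 library of untreated macrophages and 1 of macrophages given IL-36 gamma, both from C57BL/6 mice. Both deposited files carry a number 2 in their names that the labels do not explain, and any other replicates are not analysed here. The sources used here give neither dose nor duration of exposure, nor how many mice or cultures stand behind a library. Since each group is 1 library, differences have no replicate check and carry no p-value.

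EGR factors are immediate early gene products. Their genes are switched on within a short time of a stimulus, largely through the ERK kinase cascade and serum response factor, and the proteins bind GC-rich sites through a shared set of zinc fingers. NAB proteins do not bind DNA themselves: they dock on EGR factors, repress transcription in part by recruiting the NuRD chromatin remodelling complex, and are themselves induced by EGR factors, which closes a feedback loop. In the myeloid lineage EGR1 and EGR2 with NAB2 are known for favouring macrophage over neutrophil fate, and in macrophages Egr2 is known as a gene induced by IL-4.

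The zinc fingers are what makes Egr1, Egr2 and Egr3 a family, and they are a stretch where reads of the 3 genes could be hard to tell apart. From the first cysteine of the first finger to the last histidine of the last, the GENCODE M21 coding sequence of each runs for 237 bases. Over these 79 codons Egr1 encodes the same residue as Egr2 at 75 positions and as Egr3 at 71, and Egr2 and Egr3 share 74. At the level of bases Egr1 and Egr2 are 81.0% identical there. The longest run of identical bases between any transcripts of Egr1 and Egr2 is 17, between Egr2 and Egr3 44, and between Nab1 and Nab2 46. The sources used here do not give the read length.

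The Egr2 promoter is shown because it carries the element through which serum response factor is known to act. RefSeq promoter windows on GRCm38.p6, from 250 bases before to 50 after a start site, were at hand for Egr2 (5 windows), Nab1 (1) and Nab2 (1), so 3 of the 5 genes matched. The 250 bases before the start site of transcript Egr2-201, at chr10:67537619-67537868 on the plus strand, lie within the Egr2 gene, which begins upstream at 67535475. Capitals mark a CArG box, the binding motif of serum response factor, at positions -72 to -63 from the start site.
Egr2 upstream: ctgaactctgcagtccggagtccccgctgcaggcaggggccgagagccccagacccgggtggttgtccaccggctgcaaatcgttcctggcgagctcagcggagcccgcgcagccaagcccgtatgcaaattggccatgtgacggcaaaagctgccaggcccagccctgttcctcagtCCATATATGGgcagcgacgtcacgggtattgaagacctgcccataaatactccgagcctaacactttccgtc
A further CArG box lies at chr10:67537494-67537503, before another annotated Egr2 start site, in capitals within 50 bases (chr10:67537474-67537523, plus strand).
Egr2 second box: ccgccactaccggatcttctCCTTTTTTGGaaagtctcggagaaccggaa
In the Nab1 window the EGR site GCGTGGGCG occurs at 52500549 to 52500557 on the minus strand and again, reversed, at 52500581 to 52500589. The related site GCGGGGGCG occurs at 52500478 to 52500486. These Nab1 matches fall within the first exon, untranslated, of the GENCODE transcript Nab1-201. The first of them is shown in capitals within 30 bases, chr1:52500538-52500567, minus strand.
Nab1 EGR site: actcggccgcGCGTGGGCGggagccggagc

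Of all 32851 RefSeq promoter windows, 1.63% hold a CArG box, 0.612% hold GCGTGGGCG and 2.91% hold GCGGGGGCG, counting both strands. In the Egr2 windows, 4 of 5 hold a CArG box, 3 of them overlapping windows with the same box. The Sp site GGGGCGGGG, found in 11.4% of windows, was present in 1 Egr2 window and at 3 positions for Nab1, 2 of which overlap the GCGGGGGCG match. The ETS site CCGGAAG (8.86% of windows), the cyclic AMP response element TGACGTCA (1.79%) and the NF-kB site (0.155%) were not found as these exact letters in the windows of Egr2, Nab1 or Nab2. The Nab2 window held none of the 7 motifs searched. A match describes the letters in the window and is no evidence of binding.

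**Figure D1:**
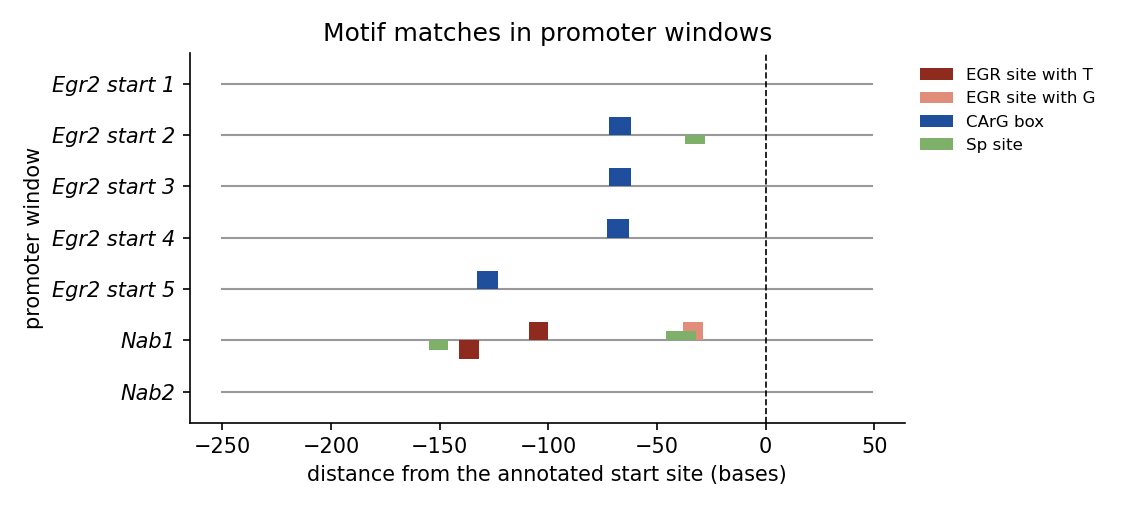
Matches of 4 motifs in the RefSeq promoter windows of Egr2, Nab1 and Nab2, by distance in bases from each annotated start site (dashed line), with same-strand matches above and opposite-strand matches below each line. Of the Egr2 windows, 4 of 5 carry a CArG box between positions -133 and -63, the Nab1 window carries 2 EGR sites with T (GCGTGGGCG) and 1 with G (GCGGGGGCG), and the Nab2 window carries none of these motifs.

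The libraries were of like depth, with gene counts of 17426367 (control) and 17267900 (IL-36 gamma). CPM are counts relative to library size, with TMM factors of 1.02 and 0.981. Ratios set the scaled count after IL-36 gamma over that of the control, with an exact 95% Clopper-Pearson interval that covers counting error only. A gene was measured where its mean count reached 10, which held for 14379 genes and for 5 of the 5 members. Macrophage markers summed to 29439 CPM untreated and 29333 CPM treated, and 8 of 8 were detected in each library. Lyz2 alone held 404546 of 523187 of these counts untreated, and of the 8 genes 3 were above 1, such as Fcgr1 (1.35), and 4 below, such as Mertk (0.786). Markers of other cells were present at low levels. Neutrophil markers summed to 125 and 204 CPM, with 5 of 7 measured members higher and 0 lower, and fibroblast markers to 11.4 and 6.20 CPM, with 3 of 3 lower. Calls of above or below 1, higher or lower, mean an interval wholly on that side. Over all measured genes 20.2% were above 1 and 16.5% below, or 14.4% and 22.4% by total gene counts. These shares are not matched for depth, on which a call depends. Among the T and NK cell markers Cd3e, Cd3g and Ncr1 had 0 counts in both libraries, as did Pdgfra among the fibroblast markers. In such bulk RNA, fewer cells of a type and less RNA per cell cannot be told apart.

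Egr2 had the lowest ratio of the family and Egr1 a smaller difference in the same direction, while Egr3 was too low to place. Nab2 was slightly lower and Nab1 had an interval that includes 1. Neither Nab gene came near the ratio of Egr2.

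Egr2 (ENSMUSG00000037868, chromosome 10, 67535475 to 67542188, GRCm38), a zinc finger activator known from myelination and from alternatively activated macrophages, had 250 counts in untreated macrophages and 71 after IL-36 gamma. The IL-36 gamma library was thus low and the counting intervals, 220 to 283 and 55.5 to 89.6 counts, did not overlap. The ratio was 0.298 (0.226 to 0.389), or 3.35-fold lower (2.57 to 4.43). Its whole interval lay beyond 2-fold, as it did in the lower direction for 0.0904% of all measured genes and in the higher direction for 0.0765%. Of 10541 protein-coding genes whose higher count was 50 or more, 0 had a lower ratio, while 35 of all measured genes (0.243%) had one. Around its own control level, within 1.5-fold, lay 2038 protein-coding genes, whose ratios ran from 0.731 to 1.30 between the 5th and 95th percentiles. Because Egr2 was chosen for this difference, its place in that order is a description.

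Egr1 (ENSMUSG00000038418, chromosome 18, 34859823 to 34864984), an early responder to growth factors, had 370 counts in untreated macrophages and 243 after IL-36 gamma. The counting intervals, 333 to 410 and 213 to 276 counts, did not overlap, and the IL-36 gamma library was again the lower. The ratio was 0.689 (0.584 to 0.813), an interval wholly below 1 but not beyond 2-fold. Intervals wholly below 1 were found for 16.5% of measured genes and wholly above 1 for 20.2%, so an interval of this kind is common in these libraries. The balance of the directions turns with the scaling: by total gene counts 22.4% lay below 1 and 14.4% above, and by DESeq2 size factors 18.4% and 18.1%. Of all measured genes, 986 (6.86%) had a lower ratio than Egr1.

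Egr3 (ENSMUSG00000033730, chromosome 14, 70077203 to 70082614), known for roles in T cells and muscle spindles, had 16 and 13 counts. Its ratio of 0.853 had an interval from 0.377 to 1.89, so that a difference of the size seen for Egr1 was not detectable at this depth. Egr4, the remaining EGR gene and no member here, had 0 counts in both libraries, which allows up to 0.169 CPM in the control and 0.177 CPM with IL-36 gamma (3 counts).

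Nab1 (ENSMUSG00000002881, chromosome 1, 52457294 to 52500679) had 1222 and 1229 counts, a ratio of 1.06 (0.974 to 1.14). The counting intervals of the libraries overlapped for Nab1, and its interval bounds a difference in these libraries to well under that of Egr1. Nab2 (ENSMUSG00000025402, chromosome 10, 127660918 to 127668568), the member of the pair best known as an EGR-induced feedback inhibitor, had 1157 and 943 counts. The IL-36 gamma library was the lower and the counting intervals, 1091 to 1226 and 884 to 1005 counts, did not overlap. The ratio was 0.855 (0.784 to 0.933), and 21.3% of measured genes had a lower one.

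The Nab2 value is uncertain because of overlapping genes on the other strand. Of its 2941 exonic bases, 1241 lie within exons of the opposite strand, of which 1050 are shared with the antisense gene Gm16229, 151 with Nemp1 and 40 with Stat6. Gm16229 had 533 and 415 counts, a ratio of 0.817 (0.717 to 0.931). Per kilobase of exon its counts, 433 and 337, were close to those of Nab2, 393 and 321. The sources used here do not state the strand setting of the counting, so reads of Nab2 and Gm16229 cannot be told apart. The other members have 0 exonic bases shared with the opposite strand.

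**Figure D2:**
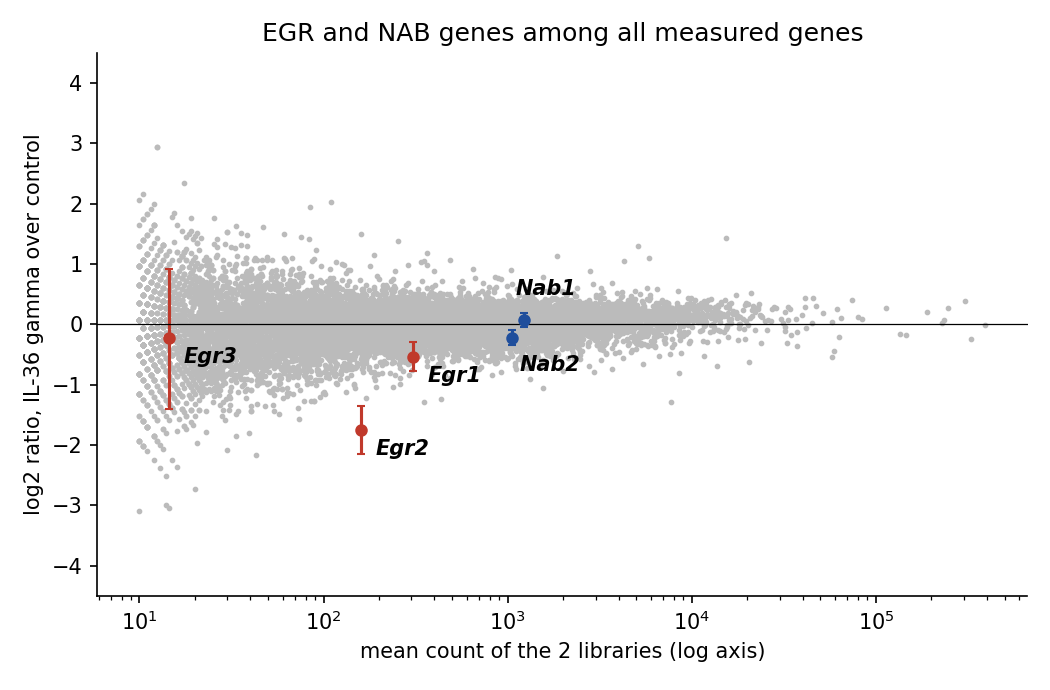
Log2 ratio of scaled counts (IL-36 gamma over control) against the mean count of the libraries on a log axis for measured genes, each a point, with the EGR genes in red and the NAB genes in blue and bars for 95% counting intervals. Egr2 lies apart from genes of like abundance at a log2 ratio of -1.75, Egr1 is at -0.54, Nab2 at -0.23 and Nab1 at 0.08, and the interval of Egr3 spans 0.

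Levels can be compared between genes per kilobase of exon, although that of Nab2 is uncertain because of the overlap with Gm16229. In the control, Nab2 was the highest at 22.1 CPM per kilobase, followed by Nab1 at 16.8, Egr1 at 4.64, Egr2 at 4.14 and Egr3 at 0.204. The counting intervals of Egr1 (4.18 to 5.14) and Egr2 (3.64 to 4.69) overlapped, so their order in the control is not set beyond counting error. With IL-36 gamma the order was Nab2 at 18.9, Nab1 at 17.7, Egr1 at 3.20, Egr2 at 1.23 and Egr3 at 0.174. There the intervals of Egr1 (2.81 to 3.63) and Egr2 (0.964 to 1.56) were apart, while those of Nab2 (17.7 to 20.2) and Nab1 (16.7 to 18.7) overlapped. In the control 46.2% of measured genes had a lower level per kilobase than Egr2, and with IL-36 gamma 22.2% did. For Egr1 these shares were 49.2% and 40.5%, and for Nab1 79.7% and 79.9%.

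**Figure D3:**
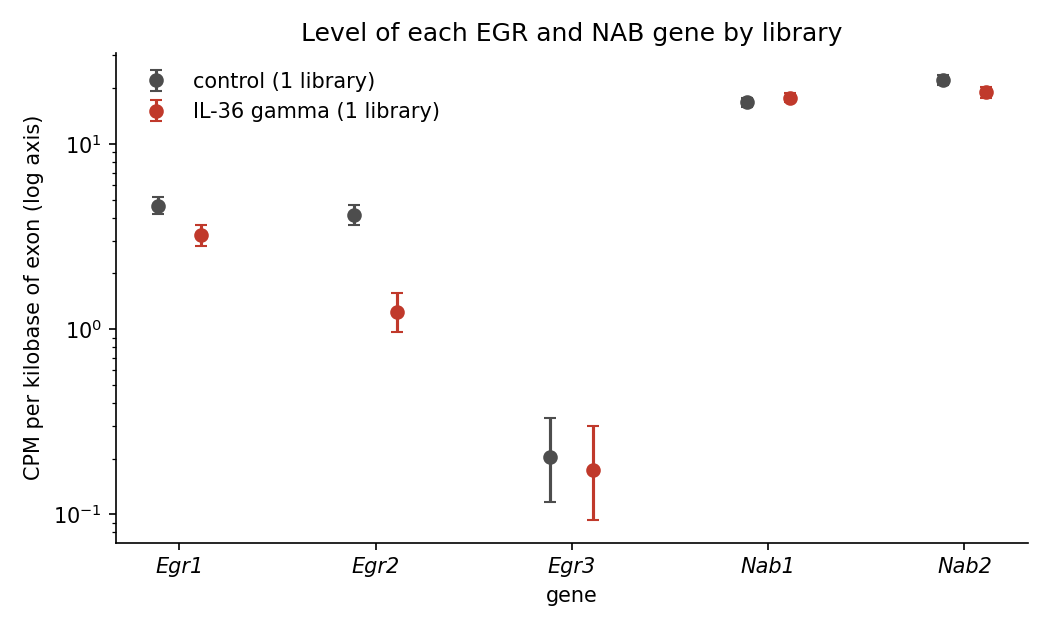
Level of each gene in CPM per kilobase of exon, on a log axis, in the control library (grey) and the IL-36 gamma library (red), with 95% exact Poisson intervals of counting error and 1 library per group. The level of Egr2 was 4.14 untreated and 1.23 treated, and Nab1 and Nab2 lay between 16.8 and 22.1 in both libraries.

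The make-up of the EGR pool within each library does not depend on scaling between the libraries. It rests on the Egr2 and Egr1 counts for which the set was chosen, so its difference between the libraries is a description. Per kilobase, Egr1 made up 51.7% and Egr2 46.1% of the summed EGR level in the control, against 69.4% and 26.8% with IL-36 gamma. In plain counts Egr2 held 250 of 636 EGR counts in the control (39.3%, exact 95% interval 35.5 to 43.2) and 71 of 327 with IL-36 gamma (21.7%, 17.4 to 26.6). Egr2 counts per Egr1 count were 0.676 in the control against 0.292 after treatment, and the quotient of these was 0.432 (0.313 to 0.595).

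The NAB genes outweighed the EGR genes in both libraries. Their summed level was 38.9 CPM per kilobase untreated and 36.6 treated, against 8.99 and 4.61 for the EGR genes. NAB transcripts per EGR transcript were thus 4.33 untreated and 7.95 treated, as levels per kilobase. That difference too holds the EGR counts on which the set was chosen, and is a description. EGR counts were 21.1% (19.7 to 22.6) of EGR and NAB counts together in the control and 13.1% (11.8 to 14.5) with IL-36 gamma. Within the pair, Nab2 held 48.6% of NAB counts (46.6 to 50.7) in the control and 43.4% (41.3 to 45.5) with IL-36 gamma. The uncertainty of Nab2 from the overlap with Gm16229 carries over to this share, to the NAB sums and to NAB per EGR, and the intervals do not cover it.

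**Figure D4:**
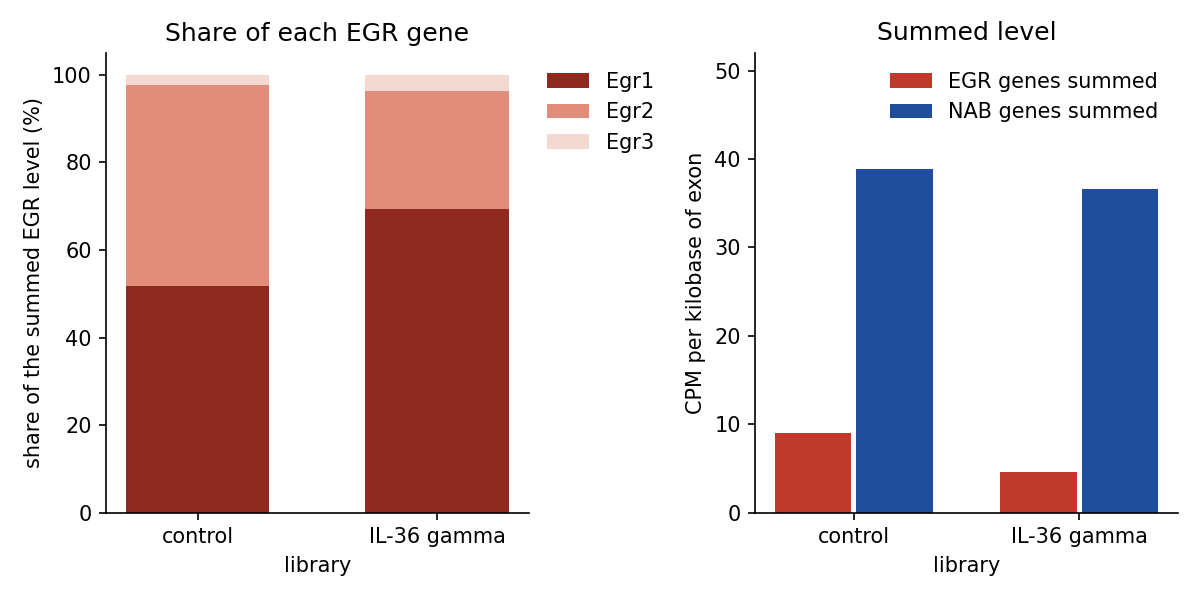
Left, share of Egr1, Egr2 and Egr3 in the summed EGR level per kilobase in each library, in percent. Right, summed level of the 3 EGR genes (red) and the 2 NAB genes (blue) in CPM per kilobase of exon, where the EGR sum is 8.99 (control) and 4.61 (IL-36 gamma) and the NAB sum 38.9 and 36.6, with 1 library per group and no error bars.

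The genes next to the members did not share the low ratio of Egr2. Ado, 2323 bases from Egr2 and on the other strand, had 929 and 835 counts, a ratio of 0.943 (0.858 to 1.04). Nrbf2, on the far side and 250170 bases away, had a ratio of 0.949 (0.816 to 1.10). Next to Egr1, Etf1 had a ratio of 0.992 (0.930 to 1.06), and Reep2 had 5 and 17 counts. Bin3, beside Egr3, was higher, with 1117 and 1326 counts and a ratio of 1.25 (1.15 to 1.35).

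By the distance between log2 CPM values over the 2 libraries, the protein-coding genes most like Egr2 were Sema6d (185 and 81 counts, distance 0.47), Hmga2 (203 and 93, distance 0.49) and Plxdc2 (198 and 95, distance 0.54). The genes most like Egr1 lay much closer, Malt1 (371 and 239 counts, distance 0.02), Map3k5 (374 and 248, distance 0.03) and Nkap (359 and 249, distance 0.06). The nearest gene to Egr1 was thus closer than the nearest to Egr2, over only 2 libraries.

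The genes around the EGR factors were drawn from 10 lists holding 139 distinct genes, of which 123 were measured. Intervals lay wholly above 1 for 34 of them and wholly below for 28, but for 29 and 37 when scaled by total gene counts. The median log2 ratio of all measured genes was 0.01, and the lists are described beside that value. They are also set beside the shares over all genes, 20.2% above and 16.5% below. Total gene counts turn these to the opposite balance, as given for Egr1. A call also depends on depth, since higher counts narrow the interval, and the shares over all genes are not matched for it. Of the distinct list genes that were measured, 27.6% were above 1 and 22.8% below. Only Cd163 had an interval wholly beyond 2-fold among the genes of these lists.

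The inputs to EGR transcription were read from 3 lists, each with genes above 1 and genes below it. Of 15 measured genes of the ERK cascade and serum response factor, 3 were above 1, 2 below and 10 neither, with a median log2 ratio of 0.02 (-0.02 with the expression trend removed). Scaled by total gene counts, 3 were above and 4 below, with a median of -0.04. The kinase gene Map2k2 had 2694 and 3191 counts (ratio 1.24), the kinase gene Mapk3, which encodes ERK1, 5468 and 5903 (1.13), and Rps6ka1, a kinase downstream of ERK, 4353 and 4748 (1.14). Another such kinase gene, Rps6ka3, had 1655 and 1243 counts (0.788) and Mrtfb, a coactivator of serum response factor, 804 and 600 (0.783). In the list from colony-stimulating factor receptors to RAS, 3 of 12 were above 1 and 4 below, with a median of -0.04. Scaled by total gene counts, 2 were above and 6 below, with a median of -0.10, and by DESeq2 size factors 3 and 6. With the GC or the expression trend removed, 6 were below as well. The receptor gene Csf1r, whose ligand maintains macrophages, had 26965 and 20786 counts, a ratio of 0.809 (0.795 to 0.824). Csf2rb (3219 and 2625 counts, 0.856) and Csf2rb2 (2443 and 1799, 0.773) were also below 1, but they are close paralogs whose reads could be split, and their values are uncertain. The phosphatase gene Ptpn6 (1.16), the adaptor gene Grb2 (1.12) and the ligand gene Csf1 (105 and 133 counts, 1.33) were above 1. Of 8 measured calcineurin and NFAT genes, 1 was above 1 and 2 below, with a median of -0.10 (0.01 with the length trend removed), and by total gene counts 5 were below. Nfat5, the tonicity-responsive member, had 1212 and 772 counts, a ratio of 0.669, Nfatc2 had a ratio of 0.890 and Ppp3r1, the regulatory subunit of calcineurin, one of 1.13.

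Among the other immediate early genes more were above 1 than below. Egr1 and Egr2 were below 1, but the set was chosen for that, so the contrast is a description. Of 25 measured, 10 (40%) were above 1 and 2 (8%) below, beside 20.2% and 16.5% of all measured genes. The median log2 ratio of the list was 0.20. Klf4, a zinc finger factor, had 64 and 106 counts, a ratio of 1.74 (1.26 to 2.41), and Csrnp1, a nuclear factor gene, 226 and 348, a ratio of 1.62 (1.36 to 1.92). The AP-1 gene Jund had 6384 and 7761 counts (1.28), although 877 of its exonic bases overlap exons of the other strand. The AP-1 gene Fosl2 (1034 and 816 counts, 0.828) and the kinase gene Plk2 (2279 and 1710 counts, 0.788) were below 1. Whether the EGR genes differ from this list was not tested. Besides Jund, the genes Csf1r, Il4ra, Icam1, Cebpb, Fn1, Rps6ka1, Csrnp1, Ptpn6, Mrtfb and Stab1 named here have between 112 and 873 exonic bases under exons of the other strand, and their values are uncertain to that extent.

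Feedback on the ERK cascade was read from 8 measured phosphatase, Sprouty and Spred genes, of which 0 were above 1 and 2 below, with a median of -0.05. The ERK phosphatase genes Dusp4 (1171 and 769 counts, ratio 0.689, 0.629 to 0.756) and Dusp6 (1576 and 1049 counts, 0.699, 0.646 to 0.756) were the lower ones. Of all measured genes 16.5% were below 1. The ratios of Dusp4 and Dusp6 are near that of Egr1, 0.689, but 986 of all measured genes had a lower ratio than Egr1. A link between these genes and Egr1 was not tested.

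On the corepressor side, 4 of 14 NuRD subunits were above 1 and 2 below, with a median of 0.07, and by total gene counts 3 were above and 3 below. The remodelling ATPase genes Chd4 (6896 and 5656 counts, 0.861) and Chd3 (3883 and 3266, 0.883) were below 1. The methyl-CpG binding domain gene Mbd3 (1.27), the histone deacetylase gene Hdac2 (1.19) and Mta2 (1.11) were above it. Of the EGR family relatives 2 of 4 were measured, 0 above 1 and 1 below, with a median of -0.13. Among them Sp1 had 1222 and 969 counts, a ratio of 0.832 (0.764 to 0.906), and Wt1 had 0 counts in both libraries.

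**Figure D5:**
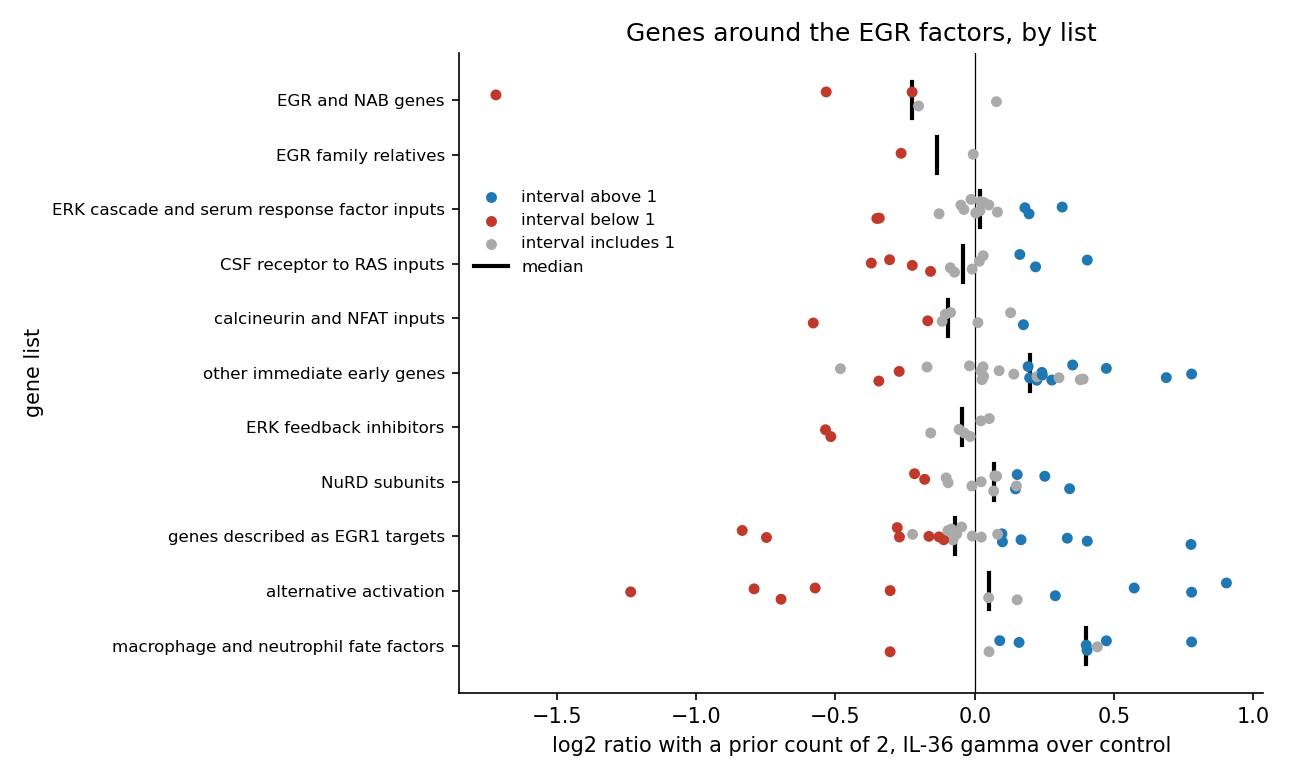
Log2 ratio (IL-36 gamma over control, prior count of 2) of each measured gene in the EGR and NAB set and in 10 lists around it, coloured by whether the counting interval lies above 1, below 1 or includes 1, with the list median as a black bar. The immediate early list has 10 of 25 genes above 1 and a median of 0.20, and the list of genes described as EGR1 targets has 6 above, 7 below and a median of -0.07.

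Genes described as EGR1 targets were split. Of 22 measured, 6 were above 1 and 7 below, with a median log2 ratio of -0.07, and by total gene counts 3 were above and 8 below. The fibronectin gene Fn1 (595 and 317 counts, ratio 0.559), the urokinase gene Plau (4728 and 2682, 0.595) and the membrane protease gene Mmp14 (6946 and 5487, 0.829) were among those below 1. Gadd45b, a stress response gene, had 645 and 1054 counts (1.72), Tnf 1381 and 1657 (1.26) and the adhesion gene Icam1 3530 and 3774 (1.12). The tissue factor gene F3, singled out after its values were seen and too low to be measured, had 14 and 2 counts. Fibroblast collagen genes, which like Fn1 encode matrix proteins, were low and also below 1: Col1a1 had 104 and 68 counts, Col1a2 60 and 21, and Col3a1 38 and 16. Their part in the EGR values or in those of Fn1 was not tested.

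Of 11 measured genes of alternative activation, the state in which Egr2 is known to be induced, 4 were above 1 and 5 below. The median was 0.05 but turned to -0.01 by total gene counts, to -0.04 with the expression trend removed, to -0.13 at a minimum mean count of 50 and to -0.14 without a count filter. Cd163, a haemoglobin scavenger receptor gene, had 618 and 249 counts (0.423, 0.364 to 0.491), Arg1, the arginase gene, 1181 and 649 (0.577) and Stab1, a scavenger receptor gene, 17284 and 10169 (0.618). Chil3, a chitinase-like gene, had 1454 and 2061 counts (1.49) and the IL-4 receptor gene Il4ra 2743 and 3194 (1.22), and Klf4 stands in this list too. Retnla and Ccl17, further IL-4 response genes, had at most 1 count.

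Of 9 measured fate factors of macrophages and neutrophils, 6 were above 1 and 1 below, with a median of 0.40. Spi1, which encodes the myeloid master regulator PU.1, had 13385 and 16863 counts (1.32) and Cebpb, a leucine zipper factor gene, 4040 and 5342 (1.39). Gfi1, a neutrophil factor that EGR factors are known to repress, had 1 count in each library. The part of the neutrophil marker levels given above in these values was not tested.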

How the data were processed

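Total RNA of 1 untreated and 1 IL-36 gamma library of bone marrow derived macrophages was sequenced, per the labels' protocols. The authors deposited unnormalized counts for each Ensembl gene. The submitters' processing notes name STAR 2.5.0a, HTSeq, FastQC 0.11.8 and Trim Galore 0.6.1 with build mm10. HTSeq version, annotation release and strand setting: not given in the sources used here. In all, 5 rows naming no gene were left out of library sizes: 47.2% of the control total and 46.3% of the IL-36 gamma total fell to no gene, 1.79% and 1.84% were ambiguous and 6.65% and 6.92% had several alignments.

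Symbols, exons and positions came from GENCODE M21, which matched 54409 of 54446 IDs without their version. Scaling used TMM from edgeR 4.0.16 in R 4.3.3. No count test was run, since single libraries give no estimate of spread. Ratios carry exact 95% Clopper-Pearson intervals and levels exact Poisson intervals. Reads without molecular identifiers are not independent molecules, so intervals and floors (3 counts) cover counting error only. List medians used a prior count of 2. The interval code was tested on simulated data. Alternatives were DESeq2 1.42.0 size factors, upper quartile and total count scaling, lowess trends on length, GC content or expression (span 0.3), other filters, prior counts, fold bounds and interval levels. Python 3.11.15, numpy 2.4.6, scipy 1.17.1, pandas 2.3.3 and statsmodels 0.14.6 were used.

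The members and the lists were chosen with earlier results of these data known. Named from each list were genes beyond 2-fold, then up to 3 higher and 3 lower genes by the interval bound nearest 1. For likeness of pattern, 3 protein-coding genes were named for Egr2 and 3 for Egr1. Where a list had no gene on 1 side of 1, the 2 closest to its median were to be named. In each marker list the most abundant gene and those at 0 in both libraries were named. Some further markers were named beside them, among them genes that went against the sum of their list. Some values that these rules would give are not reported here.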

Additional observations from a re-analysis of the deposited data

How the results depend on the processing

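Each member was recomputed under 7 alternatives. The ratio ran from 0.287 to 0.304 for Egr2, 0.663 to 0.692 for Egr1, 0.820 to 0.900 for Egr3, 1.01 to 1.07 for Nab1 and 0.815 to 0.855 for Nab2. The interval lay below 1 in 7 of 7 alternatives for Egr2, Egr1 and Nab2, and included 1 in 7 of 7 for Egr3 and Nab1. Split into 10 groups by exon length, the genes of the groups that hold the members had median log2 ratios of 0.03 to 0.08. The number of genes lower beyond the fold bound was 13, against 21 without a count filter, 5 at a mean count of at least 50, 8 among protein-coding genes and 76 at 1.5-fold. The number higher was 11, against 50 at 1.5-fold. Shares per kilobase in place of counts were, in the control, 51.7% for Egr1 and 46.1% for Egr2 of the EGR sum, 56.9% for Nab2 of the NAB sum and 18.8% for EGR of both. With IL-36 gamma they were 26.8% for Egr2, 51.7% for Nab2 and 11.2% for EGR of both. These differ by construction, since the genes differ in length. Egr4 had 0 counts and changed no share. Of 100 list medians recomputed, 5 moved by more than the median half-width of their genes' counting intervals, those of alternative activation (0.05) and of the fate factors (0.40, against 0.31 with the length trend, 0.27 with the expression trend removed and 0.28 without a filter). Depth limits Egr3, the overlap with Gm16229 limits Nab2 and its shares, and 1 library per group limits every comparison.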

Other observations

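Marker lists that no comparison above turns on are given as values. Over all measured genes 20.2% lay above 1 and 16.5% below, a balance that total gene counts turn and that is not matched for depth. Osteoclast markers summed to 219 CPM in untreated macrophages and 243 CPM after IL-36 gamma, led by Acp5 (3741 and 3976 counts). Monocyte markers summed to 28.7 and 44.2 CPM, led by Ccr2 (307 and 373 counts), with 3 of 4 above 1. Neutrophil markers were led by S100a8 (844 and 1274 counts). Dendritic cell markers summed to 47.3 and 34.2 CPM, led by Itgax (644 and 332 counts), which was below 1, while Batf3 (176 and 225 counts) was above. Endothelial markers summed to 31.7 and 38.2 CPM, led by Pecam1 (509 and 617 counts), which was above 1, while Kdr (45 and 22 counts) was below. B cell markers summed to 402 and 496 counts, of which Cd79b held 384 and 490, while Cd79a, too low to be measured, had 16 and 3. T and NK cell markers had 4 and 3 counts in all, led by Klrb1c, erythroid markers 5 and 1 (led by Hba-a1), and mast cell markers 1 and 5, led by Kit with Cpa3 and Mcpt4 at 0. Heat shock genes summed to 92.4 CPM untreated, with a ratio of 1.03, led by Hsph1 (842 and 753 counts). Mitochondrially encoded genes summed to 11903 and 10548 CPM, led by mt-Co1 with mt-Atp8 at 0, and 5 of 11 measured were below 1 and 0 above. Their counts were uneven, in the control 145671 for mt-Co1 against 164 for mt-Co2 and 79 for mt-Co3. Reads with several alignments were left out of the gene counts, so a count of 0 does not show that a gene is silent. Whether this shaped these counts was not tested.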
